A study of Homo sapiens with 2 samples.

Results

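The genes described here are the core clock activators and repressors, a list of 9 genes: *CLOCK*, *BMAL1*, *NPAS2*, *PER1*, *PER2*, *PER3*, *CRY1*, *CRY2* and *TIMELESS*. They were taken by name from 19312 protein-coding gene records of the human GRCh38 assembly, and all 9 were found. The data are 2 libraries of MDA-MB-231, a cell line from a human breast cancer of the triple-negative type, with no treatment or genetic change given in the labels. An antibody against PRMT6 was used for 1 library and an antibody against PARP1 for the other. PRMT6 methylates arginines of histones and other proteins, and PARP1 attaches chains of ADP-ribose to proteins. Each library is represented by its list of peaks, the stretches where sequenced fragments exceed the local background, with 1 library per antibody and no control library analysed here. No comparison therefore has a replicate check, no test between antibodies was made, and all values describe these 2 libraries. For each gene, peaks were sought within 3 kb of the 5′ end of its record (its promoter), inside the record and within 20 kb of it, in order to ask where PRMT6 and PARP1 were found around the genes of the clock.

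The mammalian circadian clock is a transcriptional feedback loop. CLOCK, or its paralog NPAS2, pairs with BMAL1, and the pair activates genes through short DNA motifs called E-boxes. Among the activated genes are the period genes (*PER1*, *PER2*, *PER3*) and the cryptochromes (*CRY1*, *CRY2*), whose proteins return to the nucleus and repress the activators, so that their levels rise and fall over the day. TIMELESS is best known in mammals for protecting replication forks, and its place in the clock is less settled than that of the other members. Nuclear receptors and the D-box binding proteins such as DBP form side loops that act on *BMAL1*, *CRY1* and the period genes.

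The sequences at which the peaks fell are shown for *PER3*, *PER2* and *CRY1*, the members with peak bases well within the window upstream of their first or only RefSeq start site. Each is the 250 bases upstream of the start site, 5′ to 3′ on the strand of the gene, from RefSeq (GRCh38.p14). For *PER3* (chr1:7784041-7784290, plus strand), capitals mark the 214 bases that lay under both a PRMT6 and a PARP1 peak. For *PER2* (chr2:238288611-238288860, minus strand) and *CRY1* (chr12:107093550-107093799, minus strand), capitals mark the 102 and 156 bases under a PARP1 peak, since no PRMT6 peak was listed there.
PER3: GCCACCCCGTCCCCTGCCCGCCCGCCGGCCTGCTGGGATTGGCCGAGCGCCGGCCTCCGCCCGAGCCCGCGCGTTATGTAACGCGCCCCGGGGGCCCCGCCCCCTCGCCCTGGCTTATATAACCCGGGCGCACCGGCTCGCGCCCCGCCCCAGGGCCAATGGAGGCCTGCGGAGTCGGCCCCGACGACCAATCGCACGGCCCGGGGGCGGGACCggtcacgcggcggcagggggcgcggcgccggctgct
PER2: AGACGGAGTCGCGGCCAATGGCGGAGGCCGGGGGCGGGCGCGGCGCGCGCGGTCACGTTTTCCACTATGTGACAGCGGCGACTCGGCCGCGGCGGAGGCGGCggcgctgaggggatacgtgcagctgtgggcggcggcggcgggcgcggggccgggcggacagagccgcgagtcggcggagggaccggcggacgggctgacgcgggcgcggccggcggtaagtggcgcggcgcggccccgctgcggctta
CRY1: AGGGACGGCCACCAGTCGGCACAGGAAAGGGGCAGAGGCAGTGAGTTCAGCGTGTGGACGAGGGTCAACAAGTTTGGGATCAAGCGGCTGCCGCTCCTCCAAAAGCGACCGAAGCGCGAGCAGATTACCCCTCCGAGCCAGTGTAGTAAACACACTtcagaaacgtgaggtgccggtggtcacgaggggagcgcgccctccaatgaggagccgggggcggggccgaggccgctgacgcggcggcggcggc

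A second set shows the clock motifs in these promoters, with the motif in capitals and up to 11 bases on either side. The E-box was searched as CACGTG, the related E′-box as CACGTT and the D-box as TTATGTAA, on both strands, so that AACGTG is the E′-box on the opposite strand. The lines of *PER1* and *TIMELESS* hold an E-box, those of *PER2*, *CRY1*, *CRY2* and *CLOCK* an E′-box, and that of *PER3* a D-box.
PER1: gcacccaggtcCACGTGcgcccgtgtgt
TIMELESS: tcgctcggagtCACGTGgaccagcccgg
PER2: gcgcgcgcggtCACGTTttccactatgt
CRY1: cacacttcagaAACGTGaggtgccggtg
CRY2: cacatggtaggAACGTGagggggcgggc
CLOCK: caccactcgggCACGTTtggagcagcgc
PER3: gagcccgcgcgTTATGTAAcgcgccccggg

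The PRMT6 list held 9080 peaks and the PARP1 list 11651. Each peak carries a score, the −log10 of the p- or q-value of the peak caller, which here served to rank peaks within a list, rank 1 being the best. Peaks with equal scores were given the same rank, the best of the tie. Scores of the 2 lists are not on a common scale, so positions are also given as the percentage of the list down to that rank. The smallest width was 288 bp in the PRMT6 list, shared by 53.1% of its peaks, and 200 bp in the PARP1 list, shared by 30.1%. The read depth behind each list is unknown.

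*PER3* and *CRY2* had a promoter peak in each list, which makes 2 of the 9 members (22.2%, 95% exact binomial interval 2.81% to 60.0%), where 13.5% of all protein-coding genes had both. These 2 were also the only members with a PRMT6 promoter peak, against 18.4% of all genes. A PARP1 promoter peak was found at 4 of 9, with *CRY1* and *TIMELESS* added (44.4%, 13.7% to 78.8%), against 22.6% of all genes. With 9 genes, each of these intervals includes the share of all genes. By role, none of the 3 activators had a promoter peak in either list. Of the 5 period and cryptochrome genes, 3 had one for PARP1 and 2 for PRMT6, beside 22.6% and 18.4% of all genes. Inside the record, a PRMT6 peak lay in 2 of the 3 activators and 2 of these 5 genes, beside 25.0% of all genes. A PARP1 peak lay inside 1 of 3 and 4 of 5, beside 27.4% of all genes. Records ran from 110.6 to 178.1 kb for the activators and from 11.9 to 102.2 kb for the 5 genes. The counts were not adjusted for this length. With so few genes, the differences between roles were not tested.

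Inside the gene record, 4 of 9 members held a PRMT6 peak (44.4%, 13.7% to 78.8%), against 25.0% of all genes. A PARP1 peak lay inside 6 of 9 (66.7%, 29.9% to 92.5%), against 27.4% of all genes, a share just under the lower bound of the interval. These calls are not separate from the promoter calls. The promoter peaks of *CRY2* in both lists, and of *PER3* and *TIMELESS* in the PARP1 list, also lie in or reach into the record. Both lists had a peak inside 3 members, *PER2*, *CRY2* and *NPAS2* (33.3%, 7.49% to 70.1%), against 15.7% of all genes. Within 20 kb of the record, the numbers were 6 of 9 for PRMT6, 7 of 9 for PARP1 and 5 of 9 for both, against 43.6%, 48.8% and 34.0%. The members are long genes, with a median record of 60.9 kb where the median of all protein-coding genes was 25.4 kb, and long records have more room for a peak. Per 100 kb of record, the members held 0.706 PRMT6 peaks and 1.13 PARP1 peaks, and all protein-coding genes together 0.472 and 0.56. These densities rest on 5 and 8 peaks inside the 9 records, with promoter peaks that reach into a record included.

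**Figure D1:**
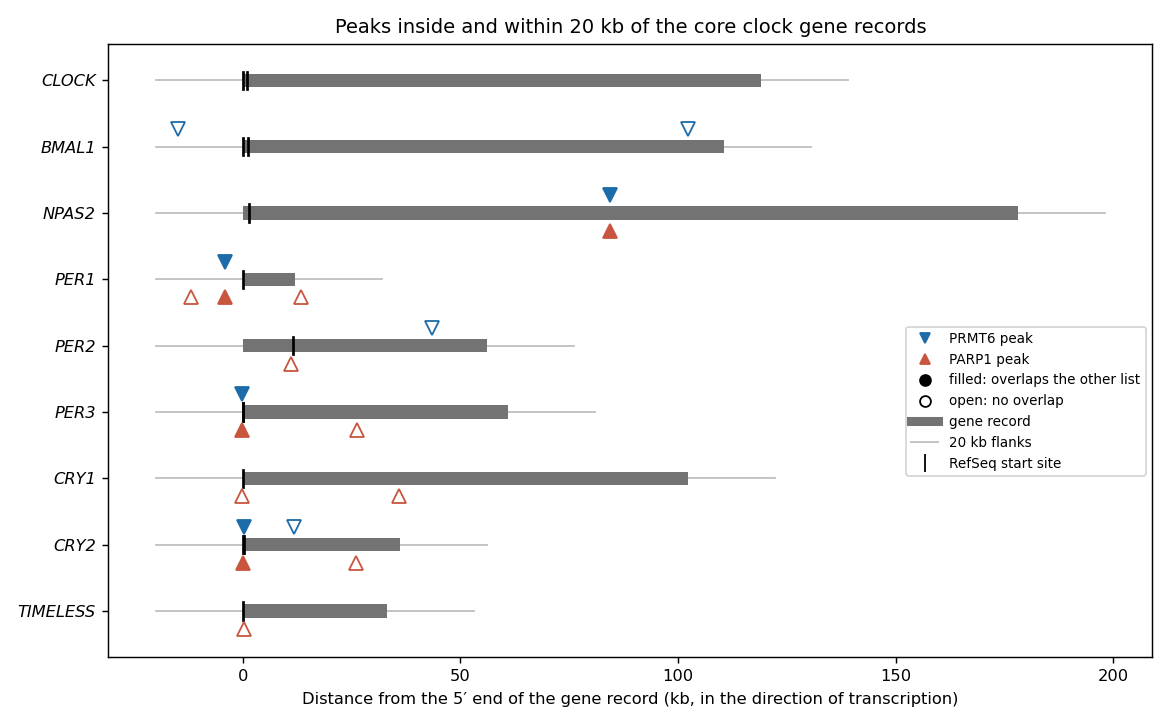
Peaks around the 9 core clock genes, plotted by the distance of the peak centre from the 5′ end of the gene record in kb, in the direction of transcription. Grey bars are gene records, thin lines the 20 kb flanks, black ticks RefSeq start sites, blue and red triangles PRMT6 and PARP1 peaks, filled where the peak overlaps one of the other list. Peaks of both lists meet at *PER1*, *PER3*, *CRY2* and *NPAS2*, and *CLOCK* has none.

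*PER3*, a period gene, was the member with the best-ranked PRMT6 peak. Its record lies on chromosome 1 from 7784291 to 7845177 on the plus strand, with RefSeq start sites at 7784291 and 7784429. The PRMT6 peak (7783738 to 7784254) had a score of 13.95 and rank 449, within the first 4.94% of the list. It lay wholly upstream, from 553 to 37 bp before the 5′ end. The PARP1 peak (7783910 to 7784381) began 381 bp upstream, crossed the first start site and ended 90 bp downstream of it. It had a score of 6.71 and rank 5328, or 45.7% of the list. The 2 peaks shared 344 bp. Their list positions stood 40.8 percentage points apart, and among 2095 promoter PRMT6 peaks that overlapped a PARP1 peak, 92.0% had a smaller difference in this direction. A further PARP1 peak (7810306 to 7810570, rank 4226), 26015 bp inside the record, overlapped no PRMT6 peak.

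At *CRY2*, a cryptochrome, both lists had a promoter peak at nearly the same position in the list. The record runs on chromosome 11 from 45847118 to 45883244 on the plus strand and has RefSeq start sites at 45847118 and 45847475. The PARP1 peak (45847094 to 45847425, score 9.96, rank 2083) spanned the first start site. The PRMT6 peak (45847255 to 45847594, score 8.53, rank 1604) began 137 bp downstream of it and spanned the second. They shared 170 bp between the start sites and stood at 17.7% of the PRMT6 list and 17.9% of the PARP1 list. Farther inside the record lay a PRMT6 peak (45858831 to 45859119, rank 4835) and a PARP1 peak (45872930 to 45873154, rank 4829), which did not meet any peak of the other list. The score of this inner PRMT6 peak is shared by 630 peaks of its list.

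*CRY1*, the other cryptochrome, differed from *CRY2* in having PARP1 peaks only. Its record covers 106991364 to 107093549 on chromosome 12, minus strand. The PARP1 promoter peak (107093644 to 107093916, score 8.14, rank 3465) lay from 367 to 95 bp upstream of the 5′ end. A PARP1 peak of the smallest width inside the record (107057500 to 107057700) ranked 10442. The nearest PRMT6 peak was 137585 bp from the 5′ end of *CRY1*, beyond the other end of the gene, at the start of the neighbouring *TMEM263*.

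For *PER2*, the call depended on which start site was used. Its record (chromosome 2, 238244044 to 238300065, minus strand) has its 5′ end 11455 bp upstream of the start site that RefSeq promoter sequences use, 238288610. No peak fell within 3 kb of the 5′ end of the record. Around the RefSeq start site, however, a PARP1 peak (238288759 to 238289023, score 6.63, rank 5487) extended from 413 to 149 bp upstream, also over the record of the noncoding RNA gene LOC112268433. The PRMT6 list had no peak there. Its single *PER2* peak (238256452 to 238256740, rank 5718) lay 31870 bp downstream of the same start site. That peak had the smallest width and a score of 4.79, which 897 peaks of the list share, 803 of them with the same width.

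When all RefSeq start sites were used for the 15436 genes that have them, a setting chosen after the peaks were seen, *PER2* was the only member whose call changed. A PARP1 promoter peak was then found at 5 of 9 members, against 25.6% of these genes. For PRMT6 the number was again 2 of 9, against 20.9%, and for both lists 2 of 9, against 15.4%. Of the 5 period and cryptochrome genes, 4 had a PARP1 peak at a start site, and *PER1* did not.

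*PER1*, the shortest member at 11.9 kb (chromosome 17, 8140472 to 8152404, minus strand), had no peak within 3 kb of its 5′ end, yet the best-ranked PARP1 peak of the whole list of members lay just outside that window. This PARP1 peak (8156349 to 8156835) had a score of 19.51 and rank 288, or 2.47% of the list, and ended 3945 bp upstream of the 5′ end. The PRMT6 peak (8156219 to 8156791) had a score of 13.12 and rank 535, or 5.89%, and ended 3815 bp upstream. They shared 442 bp. No RefSeq record of any kind lay under either peak, and of all start sites with a RefSeq promoter sequence, that of *PER1* was the nearest. With a window of 5 kb, *PER1* would count as having promoter peaks of both lists. PARP1 peaks without a PRMT6 partner were also found 11858 bp upstream (8164262 to 8164462, rank 6407) and, past the 3′ end of the gene, over the serine tRNA gene TRS-CGA1-1 (8138890 to 8139156, rank 4427).

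*TIMELESS* (chromosome 12, 56416363 to 56449426, minus strand) had a single peak within 20 kb, for PARP1. It lay inside the record (56449096 to 56449374, score 5.78, rank 7034), from 52 to 330 bp downstream of the start site. This was the lowest-ranked promoter peak among the members, at 60.4% of the list, and it is absent from the higher-scoring 50% of the PARP1 list. The nearest PRMT6 peak was 65416 bp away from the 5′ end.

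**Figure D2:**
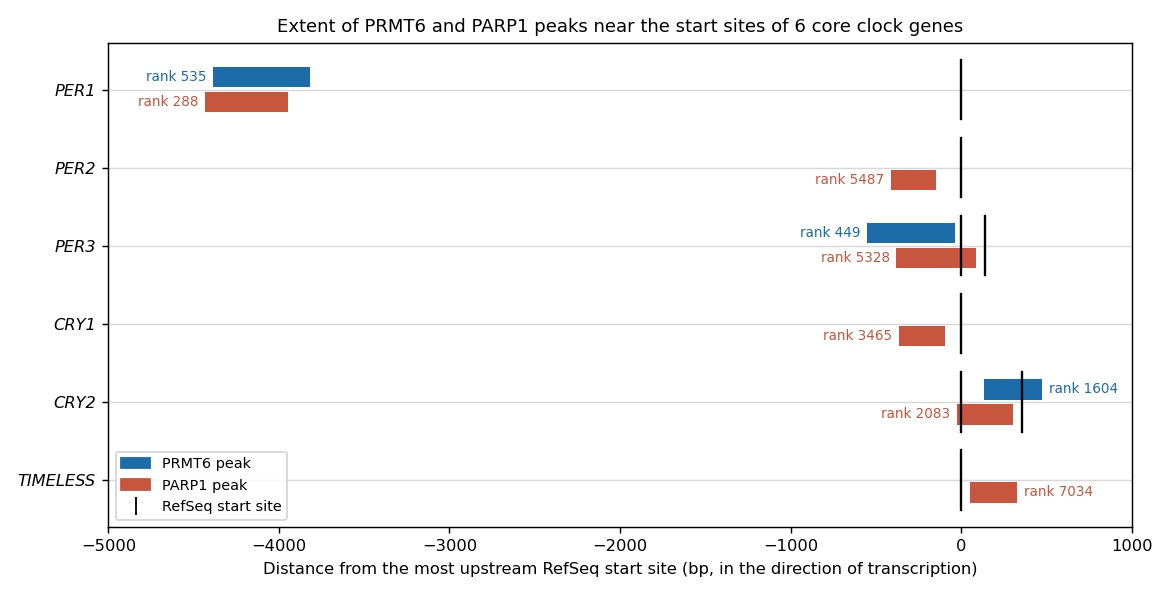
PRMT6 (blue) and PARP1 (red) peaks drawn to scale around the start sites of 6 core clock genes, with the distance from the most upstream RefSeq start site in bp, black lines for start sites and the rank of each peak beside it. The peaks of *PER3* overlap just upstream of its first start site, and those of *CRY2* overlap between its start sites. Those of *PER1* overlap from 4387 to 3945 bp upstream, and *PER2*, *CRY1* and *TIMELESS* show PARP1 alone.

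The activators had no peak of either list near their starts. *CLOCK*, the partner of BMAL1 (chromosome 4, 55427903 to 55546909, minus strand), had none in either list within 50 kb of its 119.0 kb record. From its 5′ end, the nearest PRMT6 peak was 249144 bp and the nearest PARP1 peak 249196 bp away. Of all protein-coding genes, 82.9% had a closer PRMT6 peak and 85.2% a closer PARP1 peak.

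*BMAL1*, the shared partner of CLOCK and NPAS2 (chromosome 11, 13276652 to 13387266, plus strand), had 2 PRMT6 peaks and no PARP1 peak within 20 kb. The upstream one (13261630 to 13261918, score 5.51, rank 4311) ended 14734 bp before the 5′ end, and the other (13378740 to 13379028, score 4.79, rank 5718) lay 102088 bp inside the record. Both had the smallest width of the list. The score of 5.51 is shared by 257 peaks of the list and that of 4.79 by 897, so both ranks are the best of a tie. The nearest PARP1 peak was 59928 bp from the 5′ end.

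*NPAS2*, the paralog of CLOCK and the longest member at 178.1 kb (chromosome 2, 100818723 to 100996829, plus strand), had peaks of both lists at 1 place, far from its start. The PRMT6 peak (100902955 to 100903301, score 6.81, rank 2746) lay wholly within the PARP1 peak (100902952 to 100903328, score 11.62, rank 1374). From the RefSeq start site at 100820139, the PRMT6 peak began 82816 bp and the PARP1 peak 82813 bp downstream. The *NPAS2* peak stood at 30.2% of the PRMT6 list and 11.8% of the PARP1 list.

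**Figure D3:**
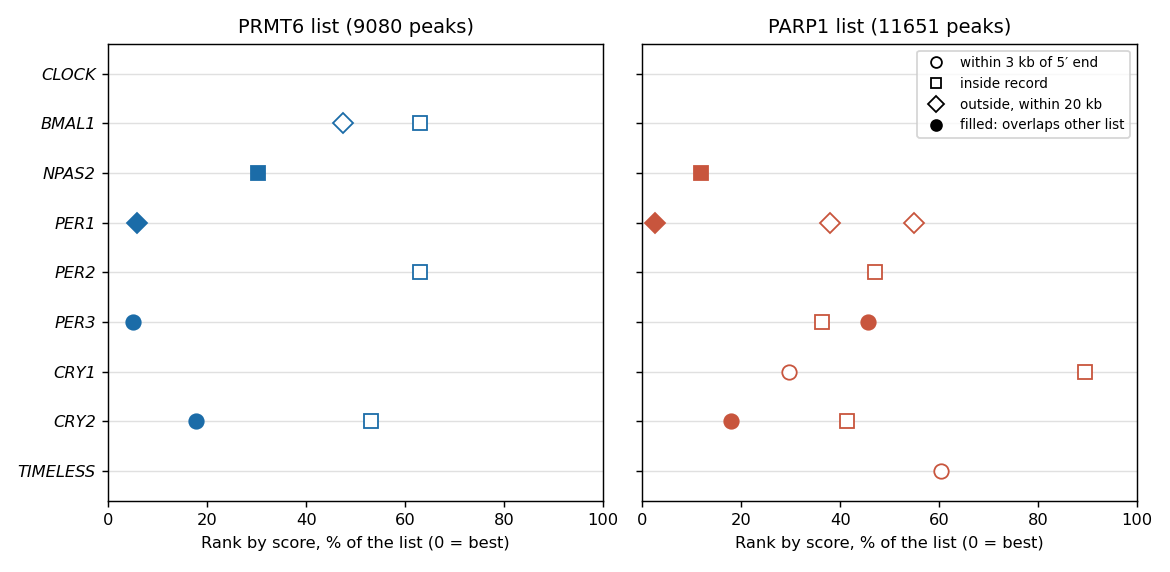
Position of each member's peaks in its list, as rank by score in percent of the list (0 is the best), with circles for peaks within 3 kb of the 5′ end, squares for peaks inside the record and diamonds for peaks outside it but within 20 kb. Filled symbols overlap a peak of the other list. All filled PRMT6 symbols lie at 30.2% or better, and all open ones beyond.

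Of the 8 PRMT6 peaks within 20 kb of a member, 4 overlapped a PARP1 peak (50%, 15.7% to 84.3%), where 46.4% of the whole list did. Of the 12 near a member in the PARP1 list, 4 met a PRMT6 peak (33.3%, 9.92% to 65.1%), where the share in the whole list was 36.4%. Both intervals include the share of the whole list. The 4 overlapping PRMT6 peaks, at *PER1*, *PER3*, *CRY2* and *NPAS2*, were all wider than the smallest width, and the 4 without overlap all had exactly that width. In the whole list, 75.7% of the wider PRMT6 peaks and 20.5% of those of the smallest width overlapped a PARP1 peak. In the PARP1 list both members' peaks of the smallest width, at *PER1* and *CRY1*, lacked a PRMT6 partner, as did 6 of the 10 wider ones. In that whole list, 12.0% of the peaks of the smallest width and 46.9% of the wider ones overlapped a PRMT6 peak.

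By distance from the 5′ end to the nearest peak, the members spread over the range of all genes. For PRMT6 the order was *PER3* (37 bp), *CRY2* (137 bp), *PER1* (3815 bp), *BMAL1* (14734 bp), *PER2* (43325 bp), *TIMELESS* (65416 bp), *NPAS2* (84232 bp), *CRY1* (137585 bp) and *CLOCK* (249144 bp), with a median of 54531 bp over all genes. For PARP1, peaks covered the 5′ ends of *PER3* and *CRY2*, and *TIMELESS* (52 bp) and *CRY1* (95 bp) followed. Then came *PER1* (3945 bp), *PER2* (11042 bp), *NPAS2* (26487 bp), *BMAL1* (59928 bp) and *CLOCK* (249196 bp), with a median over all genes of 41643 bp. Thus 7 members were closer than the median for PARP1 and 5 for PRMT6. The order uses the 5′ end of each record. From its RefSeq start site, *PER2* was 149 bp from a PARP1 peak, which would place it before *PER1*, and 31870 bp from a PRMT6 peak. Without replicates, neighbours in this order cannot be told apart beyond the extent of the peaks themselves.

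**Figure D4:**
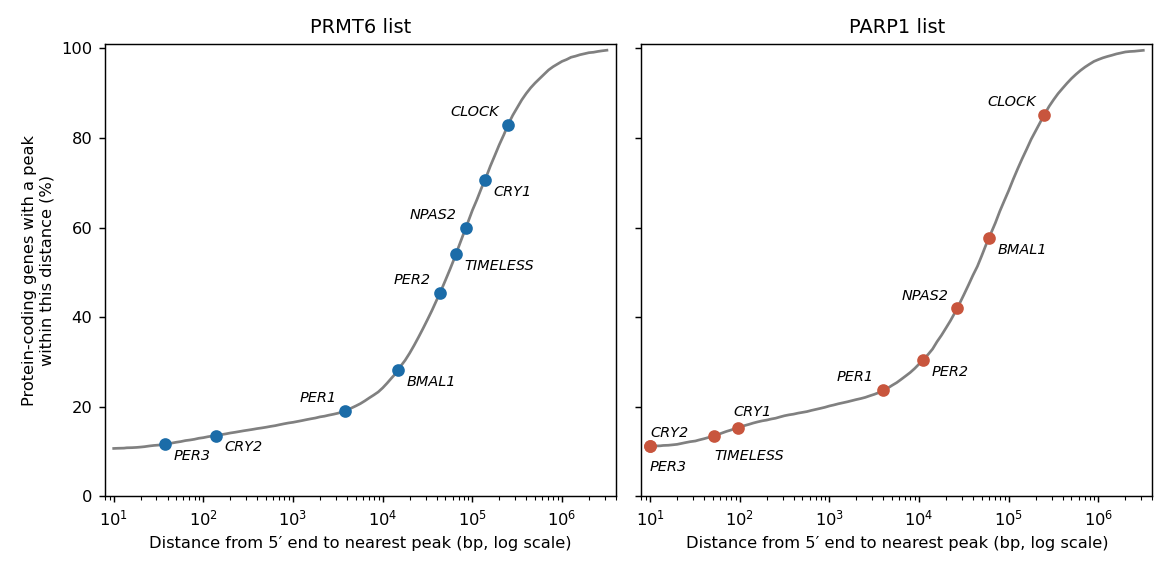
Share of protein-coding genes (grey line, %) with a peak within a given distance of the 5′ end, on a log scale in bp, for each list, with the 9 members marked at their own distance. Distances of 0, for *PER3* and *CRY2* in the PARP1 list, are drawn at 10 bp. *PER3* and *CRY2* stand near the left of both panels and *CLOCK* near the right.

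The RefSeq promoter sequences cover 250 bases upstream and 50 downstream of a start site, and 13 such windows were matched to the 9 members by symbol, of which the 2 of *PER3* overlap each other. In base composition, the windows that held bases of a peak did not form a class of their own. The CpG observed over expected ratio was 1.01 for the first *PER3* window, 1.3 for *PER2*, 0.92 for *CRY1* and 0.67 for the second *CRY2* window. The first *CRY2* window, of which a PARP1 peak covered 74 bases, was at 0.39. Windows without any peak base included those of *CLOCK*, at 1.0 and 1.05, *BMAL1*, at 0.33 and 0.86, and *PER1*, at 0.7. The median over all 35116 windows was 0.58.

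Clock motifs were found in windows with and without peaks. The E-box occurred in the windows of *PER1* and *TIMELESS* and in 7.26% of all windows, and neither match lay under a peak. The E′-box occurred at *PER2*, *CRY1*, *CRY2* and *CLOCK*, against 5.34% of all windows. The *PER2* match, 197 to 192 bases upstream of the start site, lay under the PARP1 peak, and the *CRY2* match, 188 to 183 bases upstream of the second start site, under the peaks of both lists. The *CRY1* match, 89 to 84 bases upstream, lay just outside the PARP1 peak, which ended 95 bp upstream. The *CLOCK* match had no peak of either list nearby. The D-box in the letters searched, TTATGTAA, was found only at *PER3*, 177 to 170 bases upstream, in the stretch covered by both lists. Of all windows, 0.886% hold it. Variant spellings, such as the TTATGCAA in the *PER1* window, were not searched, so a D-box particular to *PER3* is not shown. A cyclic AMP response element (TGACGTCA) was in none of the members' windows and in 1.85% of all windows. The core TAGGTCA of elements for ROR and REV-ERB receptors was in the second *CRY2* window, under both peaks, and in a *BMAL1* window without a peak, and in 1.85% of all windows.

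Motifs of general promoter factors were more frequent. The GC-box (GGGCGG) had a match in 11 of the 13 windows, against 45.0% of all windows, and each member had at least 1 window with a match. GC content was above the upper quartile of all windows (68.0%) for *PER1*, *PER2*, *PER3*, *CLOCK*, *NPAS2* and the second windows of *CRY2* and *BMAL1*. For *CRY1*, *TIMELESS* and the first windows of *CRY2* and *BMAL1* it was below. The motif shares were not adjusted for GC content. The CCAAT-box (CCAAT), searched only after the sequences had been seen, had a match in 10 of the 13 windows, at 8 members, against 34.6% of all windows. Of the 23 CCAAT matches, 7 lay under peaks of both lists and 8 under a peak of at least 1 list. Matches where the 2 *PER3* windows overlap are counted in each window. The 2 *BMAL1* windows hold 8 of the matches but no base under a peak, so none of these could lie under one. A match describes letters only. It was not tested whether any factor binds there.

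The wider clock pathway was read from a second list of 26 genes, of which 25 had a record. It comprises the nuclear receptors, D-box and E-box repressor factors, kinases, ubiquitin ligase parts and partners of the core clock. A promoter peak in each list was present at 10 of the 25 (40%, 21.1% to 61.3%), against the 13.5% of all genes given above. These 10 were all the genes of the list with a PRMT6 promoter peak, where the share of all genes was 18.4%. A PARP1 promoter peak was found at 12 of the 25 (48.0%, 27.8% to 68.7%), where it was 22.6%. The list was set up with earlier results of these data known, so its share is a description.

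Among these genes were the kinase gene *GSK3B*, with a PRMT6 peak of rank 212 and a PARP1 peak of rank 830, and *BTRC*, a ubiquitin ligase part that marks PER proteins for degradation, with ranks of 364 and 4563. *DBP*, the D-box activator, had ranks of 444 and 2841, near those of *PER3* in the PRMT6 list. The REV-ERB genes *NR1D1* and *NR1D2*, repressors of *BMAL1*, ranked 905 and 7963 in the PRMT6 list and 130 and 2057 in the PARP1 list. *BHLHE40*, a competitor of CLOCK and BMAL1 at E-boxes, had PRMT6 and PARP1 ranks of 4076 and 2990 at peaks that did not overlap. In the same order, the ranks were 4181 and 929 at *CSNK1A1*, a casein kinase gene, 3592 and 3641 at *FBXW11*, a ubiquitin ligase part, and 3890 and 2636 at *NAMPT*, a gene of NAD synthesis. *TEF* and *USP2* had a PARP1 promoter peak only, with ranks of 4365 and 11625. With RefSeq start sites, which 21 of these genes have, 10 had both (47.6%, 25.7% to 70.2%), against 15.4% of all genes with such sites. These 10 were not the same genes as before: *TEF* and *TIPIN* were now among them, and *BTRC* was not.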

How the data were processed

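The authors prepared 1 library per antibody with a CUT&Tag kit according to their methods, while the labels also describe ligation of adaptors to immunoprecipitated DNA, so the chemistry is uncertain. Peaks were called by the authors with MACS, and the submitters' processing notes name Bowtie 0.12.8 and hg19. Peak thresholds, duplicates and any control are not given in the sources used here. The deposited lists give positions and a score, the −log10 of a p-value or q-value (which of them is not stated).

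The positions matched GRCh38 and not hg19 (GRCh37): 30.0% of PRMT6 and 29.3% of PARP1 peaks lay within 1 kb of a 5′ end of GRCh38 records, against 4.07% and 4.0% with GRCh37 genes. RefSeq records (GRCh38.p14) took their strand from the GENCODE gene of the same name or synonym, which left out 738 genes. Of 15436 genes with a strand in the RefSeq promoter table too, 15366 had the same one. Exons, introns and untranslated regions were not analysed here. Coordinates are printed as listed, and positions may shift by 1 bp with the counting convention.

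Overlap meant at least 1 shared bp, and the counts equalled those of bedtools 2.31.1. The software was Python 3.11.15 (pandas 2.3.3, numpy 2.4.6). Intervals are 95% exact binomial (Clopper-Pearson, scipy 1.17.1), take genes and peaks as independent of each other, and hold counting error alone. The overlap code was tested on simulated data and found the right peaks in 300 of 300 windows. The members and lists were chosen with earlier results of these data known. All members are named with every peak within 20 kb. Of the other clock genes, those with promoter peaks in both lists were to be named, and 1 of them is counted but not reported by name. *TEF* and *USP2* were named after their values were seen.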

Additional observations from a re-analysis of the deposited data

How the results depend on the processing

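Of 70 alternative values, 68 stayed within 1.5 times of the value given and 2 moved. The number of members with a PRMT6 peak inside the record was 4 and became 2 when only the higher-scoring 50% of peaks was used, and 2 once the peaks with the smallest width were dropped. In the latter setting *PER2* and *BMAL1* had no such peak left, while *CRY2* lost 1 of its 2. Because most counts are small, the limit of 1.5 times also let through losses of 1 or 2 members. Without the peaks of the smallest width, members with a PRMT6 peak within 20 kb fell from 6 to 4. Members with peaks of both lists inside the record fell from 3 to 2, both in that setting and with the higher-scoring 50%. Members with a promoter peak in each list numbered 2 under each setting run, except for the 5 kb window, which added *PER1* and gave 3. PARP1 promoter peaks ranged from 3 members in the higher-scoring 50% to 5 with the 5 kb window or with all RefSeq start sites, where different genes were added. The share of all genes with a PARP1 peak changes with the window too. It was 22.6% at 3 kb, 24.8% within 5012 bp and 25.6% for genes with RefSeq start sites. For the higher-scoring 50% this share is not given here. The member peaks that overlapped the other list numbered 4 for each list under all 5 settings run. No paired analysis was possible because there is a single library per antibody. Read depth is unknown, so an absent peak means only that none was listed.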

Other observations

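Just beyond 20 kb of *PER1*, both lists had a peak over *SNORD118*, the gene of the U8 small nucleolar RNA, and the adjoining *TMEM107*. The PARP1 peak (chromosome 17, 8172971 to 8173666) had a score of 32.92 and rank 36, and the PRMT6 peak (8173123 to 8173543) a score of 6.57 and rank 3000. The PARP1 peak was thus better ranked than any PARP1 peak within 20 kb of a member. A PRMT6 peak over the isoleucine tRNA gene TRI-AAT5-5 (8187645 to 8187992, rank 1899), 35241 bp upstream of *PER1*, overlapped a PARP1 peak (8187675 to 8188018, rank 524). Next to *CRY1*, the start of *TMEM263* held a PRMT6 peak (chromosome 12, 106955498 to 106955964) of rank 913 and 2 PARP1 peaks of ranks 4651 and 11193, the better of which did not overlap the PRMT6 peak.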
